A study of Mus musculus with 6 samples.

Results

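Dntt, Ighm and Igkc, genes of antigen receptor diversity better known from developing lymphocytes and B cells, were followed in activated mouse CD8+ T cells, 3 genes of the 14481 in the deposited count table. They were chosen by name with earlier results of these data in view: Dntt because its level was higher in 1 of the groups, Ighm because it is abundant in these cells and Igkc because it is scarce. The Dntt difference and the Ighm and Igkc levels are therefore given as descriptions, and a test is given for the group difference of Ighm and Igkc alone. The 6 libraries were made from polyadenylated RNA of sorted wild-type CD8+ T cells at day 3. All cells had first been stimulated for 1 day with plate-bound anti-CD3 and soluble anti-CD28 antibodies, each at 1 µg/ml. Interleukin 2 was present at 0.1 µg/ml, and the RPMI medium held 10% serum and antibiotics. Conditioned medium (CM) was then added for 2 days, from astrospheres labelled pSTAT3- for 3 libraries and pSTAT3+ for 3; the groups are called STAT3- CM and STAT3+ CM. pSTAT3 denotes the phosphorylated form of the transcription factor STAT3, and the label refers to the astrospheres that gave the medium, not to the T cells. Whether the replicates came from different animals or wells is not in the labels, so the p-values reflect the spread among these 6 libraries, which may be technical, and no library without CM was analysed here.

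Dntt encodes terminal deoxynucleotidyl transferase (TdT), a DNA polymerase that adds nucleotides without a template at the joints of V(D)J recombination. Recombination joins variable, diversity and joining segments into antigen receptor genes: RAG proteins cut the DNA, and the non-homologous end joining proteins seal it. In T cells this happens in the thymus, and TdT is a marker of immature lymphocytes. Ighm encodes the constant region of the immunoglobulin µ heavy chain and Igkc that of the κ light chain, which pair in the antibodies of B cells. Unrearranged heavy chain loci are also transcribed in T cells, from the intronic enhancer region upstream of Ighm, as sterile transcripts that encode no antibody. Gene-level counts cannot tell sterile from rearranged transcripts.

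The sequences behind these counts are shown because the contrast of Ighm with Igkc and Ighd rests on assigning reads to the right constant region. The first 120 bases of the longest GENCODE M21 transcript of each reads 5′ to 3′ as follows; Ighm and Ighd lie on the minus strand of chromosome 12 and Igkc on the plus strand of chromosome 6.
Ighm: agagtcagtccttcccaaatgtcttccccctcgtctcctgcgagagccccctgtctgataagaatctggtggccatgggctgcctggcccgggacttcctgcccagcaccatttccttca
Igkc: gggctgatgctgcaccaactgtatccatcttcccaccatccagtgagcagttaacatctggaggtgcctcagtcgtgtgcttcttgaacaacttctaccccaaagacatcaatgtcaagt
Ighd: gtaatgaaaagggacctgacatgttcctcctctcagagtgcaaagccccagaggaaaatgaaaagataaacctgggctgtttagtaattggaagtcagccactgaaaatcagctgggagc
Of the 50-base stretches in the annotated transcripts of Ighm (1837), Igkc (483), Ighd (1850) and Dntt (2290), 0 occurred in a transcript of any other gene, on either strand. Ighg1 and Ighg3 did share 50-base stretches with other γ constant regions, 10 of 2542 and 39 of 2463, so their counts are less certain. No annotated gene overlapped Dntt or Ighm, whereas Igkc was overlapped by Gm30211, a non-coding gene on the same strand that has no row here. How reads in that overlap were counted is not given in the sources used here.

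Dntt, on the plus strand of chromosome 19, was the member picked for its higher level with STAT3+ CM. The 250 bases before its RefSeq start (GRCm38.p6, chr19:41029025-41029274) are given, with capitals on the matches to the motifs searched.
Dntt: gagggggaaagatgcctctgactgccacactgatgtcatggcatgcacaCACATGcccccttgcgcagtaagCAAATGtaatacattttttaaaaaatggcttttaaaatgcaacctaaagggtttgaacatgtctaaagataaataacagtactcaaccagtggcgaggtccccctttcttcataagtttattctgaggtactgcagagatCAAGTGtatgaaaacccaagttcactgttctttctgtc
Both strands were searched for 6 motifs, of which 1 was found, the E-box CANNTG of helix-loop-helix factors, with 3 matches beginning 201, 178 and 38 bases before the start. It also occurred in 66.2% of 32851 annotated promoter windows of this length. The Ikaros core TGGGAA (21.6% of windows), the Ets core AGGAAG (29.5%), the octamer ATGCAAAT (1.60%), the STAT site TTCNNNGAA (7.02%) and the TATA box TATAAA (12.4%) had no match, and the matches found did not overlap. A match is a description of the letters, and its absence from this window says nothing about the factor.

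Dntt was scarce in every library and higher with STAT3+ CM. It had 77, 72 and 108 reads in STAT3- CM replicates 1 to 3 and 388, 166 and 163 in STAT3+ CM replicates 1 to 3. As CPM (counts scaled to a common library size by the library total and its TMM factor) these were 1.70, 1.53 and 2.34 against 8.55, 3.99 and 2.94. All 3 STAT3+ CM libraries lay above all 3 of STAT3- CM, and STAT3+ CM replicate 1 lay far above the rest. The means were 1.86 ± 0.425 CPM and 5.16 ± 2.98 CPM (SD, n = 3 each), a ratio of 2.78, and the fitted log2 fold change was 1.46 (SE 0.41). Without STAT3+ CM replicate 1 it was 0.89 (SE 0.29), a log2 value over 1.5 times smaller. As the groups did not overlap, leaving out 1 library could hardly change the direction, so nothing is read from its sign. Leaving out STAT3- CM replicate 3 as well, the other library that stood apart in the whole profile, gave 1.09 (SE 0.27). Groups that did not overlap were found with STAT3+ CM higher for 3.78% of the 14319 genes tested, and with STAT3+ CM lower for 4.18%; since Dntt was picked for this contrast, nothing is read from its place among them. In a bulk sample, more cells with the transcript and more transcript per cell cannot be told apart.

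Ighm was abundant in all 6 libraries. It had 13622, 15002 and 12390 reads with STAT3- CM and 14569, 14015 and 16403 with STAT3+ CM, or 301, 319 and 268 CPM against 321, 337 and 296 CPM. The groups overlapped, with STAT3- CM replicate 3 lowest and STAT3+ CM replicate 2 highest. The means were 296 ± 25.9 and 318 ± 20.4 CPM, and the log2 fold change of 0.10 (SE 0.13) did not pass edgeR's quasi-likelihood test (adjusted p = 0.989 over all genes).

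Igkc was low, with a mean CPM above that of 19.6% of the 14481 genes in the deposited table. Its reads numbered 45, 57 and 27 with STAT3- CM and 37, 58 and 52 with STAT3+ CM, which is 0.993, 1.21 and 0.585 CPM against 0.815, 1.39 and 0.939 CPM. The groups overlapped. The exact 95% Poisson interval (counting error only) of the lowest count, in STAT3- CM replicate 3, was 17.8 to 39.3 reads, and that of the highest, in STAT3+ CM replicate 2, was 44.0 to 75.0. With means of 0.931 ± 0.319 and 1.05 ± 0.304 CPM, the log2 fold change was 0.15 (SE 0.35, edgeR adjusted p = 0.989), and it was -0.09 when STAT3- CM replicate 3 was left out and -0.08 when STAT3+ CM replicate 2 was. Neither Ighm nor Igkc was called (0 of 2, where 0.0% of all genes were called by edgeR). Over all 14319 genes edgeR called 0, with 521 (3.64%) at an unadjusted p under 0.05; DESeq2 called 48 (0.335%) and limma-voom 0, and neither tool called Ighm or Igkc.

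**Figure D1:**
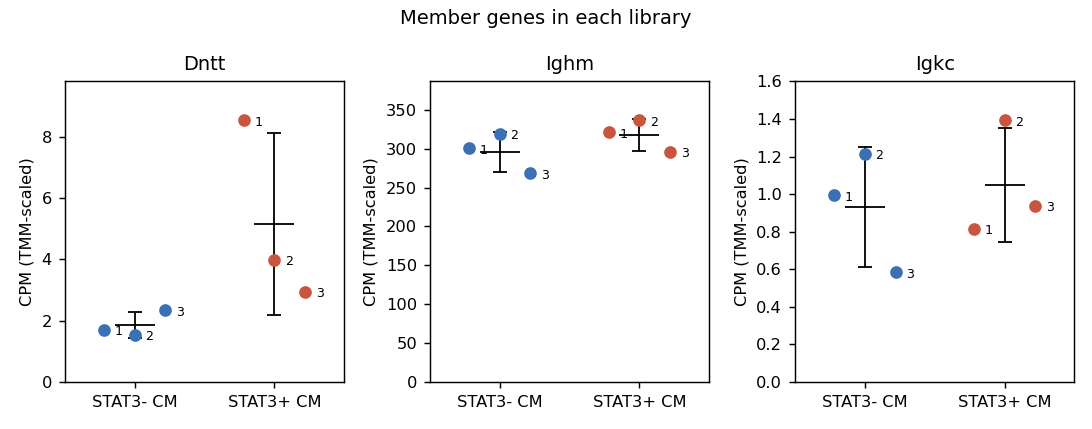
CPM of Dntt, Ighm and Igkc in each library (points, numbered by replicate) with group means and SD (black), on axes that start at 0. For Dntt the 3 STAT3+ CM libraries (2.94 to 8.55 CPM) lie above the 3 of STAT3- CM (1.53 to 2.34 CPM), whereas for Ighm and Igkc the groups overlap.

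Per kilobase of the longest annotated transcript, Ighm stood near the T cell receptor genes and Igkc among low transcripts. Ighm stood at 174 ± 15.2 CPM per kilobase with STAT3- CM and 187 ± 12.0 with STAT3+ CM, above 97.4% of the 14121 genes with an annotated length. Trbc2, a constant region of the T cell receptor β chain, stood at 696 ± 65.2 and 772 ± 75.9 CPM per kilobase, so that Ighm had 0.233 to 0.263 times its level over the 6 libraries. Trbc1 (409 ± 22.6 and 477 ± 79.4) and Trac, the α chain constant region (331 ± 13.6 and 382 ± 45.6), lay between them. Igkc had means of 1.75 and 1.97 CPM per kilobase (1.10 to 2.28 and 1.53 to 2.62 over libraries), above 32.4% of genes, and Dntt had 0.872 ± 0.200 and 2.42 ± 1.40, above 30.9%.

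Within a library, the level of Ighm per kilobase was 75.7 to 144 times that of Igkc. The ratio was 94.8, 82.5 and 144 with STAT3- CM and 123, 75.7 and 98.8 with STAT3+ CM, so the groups overlapped. The order of Igkc and Dntt was not fixed: with STAT3- CM the ratio of Dntt to Igkc within a library ran from 0.315 to 0.999, and with STAT3+ CM their levels overlapped (1.38 to 4.01 CPM per kilobase for Dntt). Those 2 neighbours therefore did not differ beyond their spread with STAT3+ CM.

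**Figure D2:**
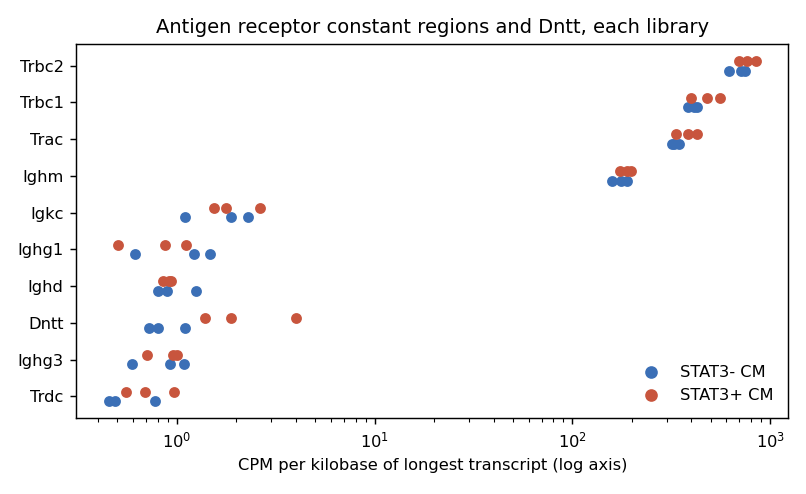
CPM per kilobase of the longest transcript, on a log axis, for antigen receptor constant regions and Dntt; each point is 1 library, with STAT3- CM in blue and STAT3+ CM in red. Ighm (158 to 198) sits next to Trac and the Trbc genes, and Igkc, Ighd, Ighg1 and Ighg3 sit at 0.506 to 2.62.

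The abundance of Ighm was not shared by the other immunoglobulin genes. Of 13 immunoglobulin chain genes on the list, 5 had a row: Ighm, Igkc, Ighd, Ighg1 and Ighg3. Ighd, the δ constant region next to Ighm, which mature B cells splice from the same primary transcript, had 73, 68 and 104 reads with STAT3- CM and 70, 70 and 91 with STAT3+ CM. Per kilobase Ighm had 127 to 235 times the level of Ighd. Ighg1 and Ighg3, constant regions of switched IgG antibodies, stood at 2.73 ± 1.09 and 2.09 ± 0.606 CPM with STAT3- CM and 2.05 ± 0.750 and 2.14 ± 0.384 CPM with STAT3+ CM. For 0 of the 5 genes did the groups lie apart, where 7.95% of all genes tested did in either direction. Their log2 fold changes ran from -0.39 for Ighg1 to 0.15 for Igkc with a median of 0.02, and 0 were called by edgeR, DESeq2 or limma-voom or had an unadjusted p under 0.05. The median over all genes tested was 0.00076, and 3.64% of them had an unadjusted p under 0.05.

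Variable segments had rows for the T cell receptor and none for immunoglobulins. Of 113 Ighv, 100 Igkv and 3 Iglv segments annotated by name in GENCODE M21, 0 had a row, against 21 of 22 Trbv and 54 of 108 Trav segments. The lowest gene total in the table was 40 reads over the 6 libraries, so genes with fewer reads may have been left out before deposit, and a missing row is not a count of 0. The Trbv segments summed to 293 ± 16.4 CPM with STAT3- CM and 315 ± 17.5 with STAT3+ CM. The 1 immunoglobulin joining segment with a row was Ighj1, at 0.760 ± 0.205 and 0.906 ± 0.00563 CPM. It lies upstream of Ighm in the heavy chain locus, and unrearranged transcripts can also cover it.

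The partners of the immunoglobulin chains in B cell development had few reads. Vpreb1 and Vpreb3, which encode parts or relatives of the surrogate light chain of pre-B cells, had 6 to 21 and 13 to 123 reads per library, with 2 of the 4 genes on that list having a row. Vpreb3 had its highest count (123) and its lowest (13) both with STAT3- CM, and its log2 fold change of -0.24 was smaller than its SE of 0.64. Neither was called by edgeR, DESeq2 or limma-voom. Nor did either have an unadjusted p under 0.05, where 3.64% of all genes tested had such a p.

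The other V(D)J recombination genes are described next. Dntt was picked for this contrast, so nothing is read from its place among them. Of 17 V(D)J recombination genes 15 had a row, and the genes without one were Rag1 and Rag2, the nuclease that starts the reaction. Apart from Dntt, 14 genes were tested: 8 had positive and 6 negative log2 fold changes, from -0.44 to 0.21, with a median of 0.02. Of these 14, 0 were called by edgeR, DESeq2 or limma-voom. With an unadjusted p under 0.05 there were 0, where 3.64% of all genes tested had such a p. The end-binding proteins Xrcc6 (Ku70) and Xrcc5 (Ku80) had log2 fold changes of 0.21 (SE 0.12) and 0.09 (SE 0.14). Their partner kinase Prkdc, the catalytic subunit of DNA-PK, had -0.26 (SE 0.17), and Dclre1c, the Artemis nuclease that opens hairpins, -0.19 (SE 0.17). In the ligase complex, Lig4 had 0.02 (SE 0.17), Xrcc4 0.21 (SE 0.16) and Nhej1 (XLF) -0.10 (SE 0.20). Its accessory factor Paxx had 0.03 (SE 0.17).

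Among the genes outside the core reaction, the chromatin proteins Hmgb1 and Hmgb2, which help RAG bind DNA, had 0.11 (SE 0.17) and 0.09 (SE 0.19). The damage kinase Atm had the lowest log2 fold change of the list. It stood at 73.8, 71.3 and 65.2 CPM with STAT3- CM and 55.2, 35.2 and 64.8 CPM with STAT3+ CM. These groups lay apart by a narrow margin, and the log2 fold change of -0.44 (SE 0.20) did not pass (edgeR adjusted p = 0.989). The groups of Xrcc6 also lay apart, at most 95.5 CPM with STAT3- CM and at least 97.7 CPM with STAT3+ CM. Of all genes tested, 7.95% lay apart in either direction. Trp53bp1 (53BP1), which protects broken ends, had -0.07 (SE 0.15).

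Among the polymerases most like TdT, none was called in the contrast. Polm, the closest relative of TdT, had a mean of 4.98 CPM per kilobase with STAT3- CM and 4.16 with STAT3+ CM, above the Dntt means. In CPM it stood at 14.5 ± 2.73 CPM with STAT3- CM and 12.2 ± 1.54 with STAT3+ CM, with a log2 fold change of -0.25 (SE 0.18). Poll (0.05, SE 0.13) and Polb (0.22, SE 0.15), gap-filling polymerases of end joining and base excision repair, were also not called. The TdT-binding proteins Dnttip1 and Dnttip2 had 0.04 (SE 0.14) and 0.07 (SE 0.18), and the replication clamp Pcna 0.04 (SE 0.15). Of the 6 genes of this list other than Dntt, 5 had positive values, and 0 were called by any of the 3 tools. An unadjusted p under 0.05 was found for 0 of them and for 3.64% of all genes tested.

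**Figure D3:**
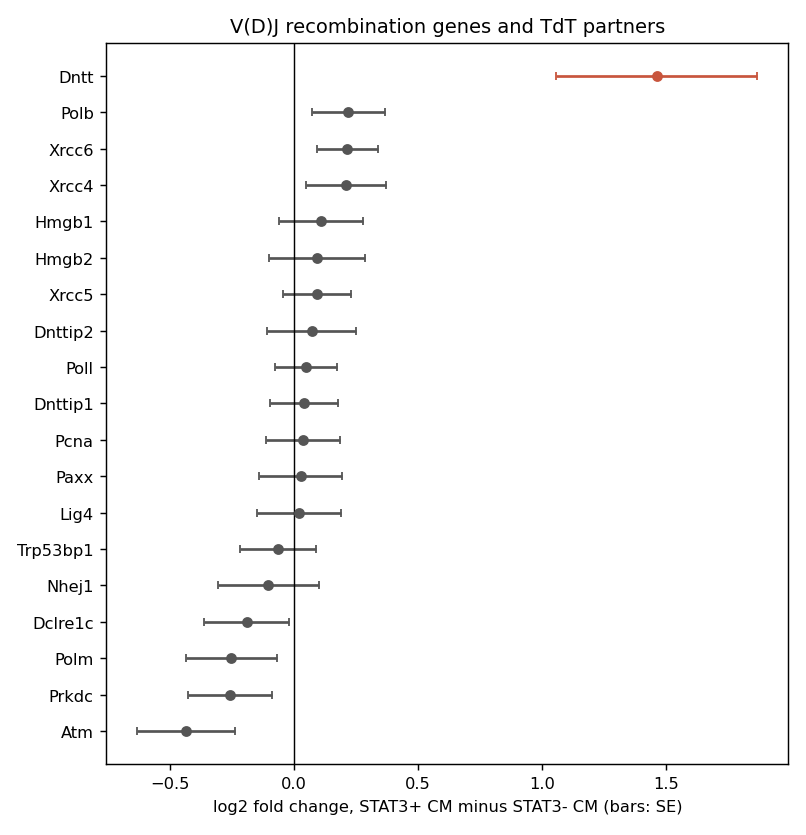
Log2 fold changes (STAT3+ CM minus STAT3- CM, bars are SE) of V(D)J recombination genes and TdT relatives and partners. Dntt, in red, lies at 1.46 and was chosen for this contrast; the others lie between -0.44 and 0.22.

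T cell receptor constant regions were on the positive side in 6 of 7 genes. Trac had a log2 fold change of 0.21 (SE 0.13), Trbc1 of 0.22 (SE 0.15) and Trbc2 of 0.15 (SE 0.14). Among the γδ constant regions, Trdc ran from 1.75 to 3.74 CPM over the 6 libraries and Trgc2 was highest, at 31.7 CPM, in STAT3+ CM replicate 1, while Trgc1 stood at 1.46 ± 0.502 and 1.53 ± 0.528, and Trgc4 at 4.31 ± 1.25 and 3.70 ± 0.577 CPM. Of the 7, 0 were called by edgeR, DESeq2 or limma-voom, and their median log2 fold change was 0.21. An unadjusted p under 0.05 was found for 0 of them and for 3.64% of all genes tested.

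Of 24 transcription factors that act on the heavy chain locus, on Dntt or in lymphoid development, 22 had a row, 11 with positive and 11 with negative values. By edgeR, DESeq2 and limma-voom 0 were called. Of the 22, 1 had an unadjusted p under 0.05, near the share of 3.64% over all genes tested. That gene was Irf8, an interferon regulatory factor of B and dendritic cells, at 295, 311 and 381 CPM with STAT3- CM and 453, 464 and 516 CPM with STAT3+ CM. Its groups did not overlap, as was so for 7.95% of all genes tested in either direction. Its log2 fold change was 0.54 (SE 0.14, edgeR adjusted p = 0.702). Next by p came Id3 (0.38, SE 0.23), an inhibitor of E proteins, Pou2f1 (-0.24, SE 0.17), the octamer factor Oct-1, and Id2 (-0.35, SE 0.28).

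Markers of cells known to carry Dntt or immunoglobulin transcripts were examined beside the members. The CD8 T cell markers had 10 of 10 rows, summing to 3561 to 3706 CPM with STAT3- CM and 3542 to 4467 with STAT3+ CM. Of 15 B cell markers 4 had a row, and Cd79a, Ms4a1 and Pax5, which help define the lineage, had none. The 4 were Cd79b, Bank1, Spib and Pou2af1, with sums of 63.8 to 94.4 CPM and 57.3 to 93.3 CPM, so the groups overlapped. Cd79b, a signalling chain of the B cell receptor, was at most 10.7 CPM with STAT3- CM and at least 10.9 CPM with STAT3+ CM. Its groups thus did not overlap, which held for 7.95% of all genes tested, and its log2 fold change was 0.39 (SE 0.19). Spib, a transcription factor of B and plasmacytoid dendritic cells, had a log2 fold change of -1.20 (SE 0.40), and its groups overlapped. Neither gene was called by edgeR (adjusted p = 0.989 for each). Plasma cell markers had 4 of 7 rows (134 to 159 and 146 to 204 CPM), Jchain and Mzb1 having none.

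Immature thymocyte markers had 4 of 7 rows, with sums of 90.3 to 146 and 70.0 to 112 CPM, and Rag1, Rag2 and Arpp21 had none. Among the 4 with a row, Ptcra, the pre-T cell receptor α chain, stood at 0.505 ± 0.146 and 0.502 ± 0.194 CPM. Plasmacytoid dendritic cell markers had 9 of 11 rows, 5 of them with negative and 4 with positive values, and a median log2 fold change of -0.18. Spib was the lowest, followed by Runx2 (-0.40), Ly6d (-0.27), Tcf4 (-0.19) and Cox6a2 (-0.18). The summed level of all 9 lay apart between the groups, at 482 to 555 CPM with STAT3- CM and 664 to 701 with STAT3+ CM. Irf8 and Bst2 made up most of it. Irf8 lay apart, at 295 to 381 CPM with STAT3- CM and 453 to 516 with STAT3+ CM. Bst2 overlapped, at 82.2 to 91.5 and 88.3 to 112 CPM. The sum is thus weighted to Irf8 and does not describe the 9 genes alike. Of all single genes tested, 7.95% lay apart in either direction. Siglech had no row, which is not a count of 0. Which cells carried these transcripts was not tested. Ccr9, a chemokine receptor on that list, had 10.4, 3.81 and 3.14 CPM with STAT3- CM and 36.3, 26.2 and 24.6 CPM with STAT3+ CM. Its log2 fold change was 2.33 (SE 0.38), called by DESeq2 but not by edgeR (adjusted p = 0.207). DESeq2 called 0.335% of all genes tested, and groups lay apart for 7.95%. The list holding Ccr9 was chosen with earlier results of these data known. The contribution of these cell types to the Dntt difference was not tested.

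The genes beside Dntt on its chromosome had small differences. The nearest with rows in the annotation's order were Zfp518a and Ccnj on one side and Tm9sf3 and Pik3ap1 on the other, with log2 fold changes of -0.05 (SE 0.15), 0.09 (SE 0.18), -0.01 (SE 0.13) and -0.08 (SE 0.15). Around Ighm these were Ighg3, Ighd, Ighj1 and the non-coding gene Gm30948, the last at 0.777 ± 0.399 and 1.26 ± 0.289 CPM (log2 fold change 0.68, SE 0.38). On either side of both genes, 0 neighbours had an unadjusted p under 0.05, where 3.64% of all genes tested had such a p.

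The genes whose log2 CPM followed Dntt most closely over the 6 libraries, among 11630 with a mean of at least 1 CPM, were Zfp992 (Pearson's r = 0.990), Plac8 (0.989), Cmas (0.988), Cracdl (0.987) and Fam117a (0.984). In each of the 5 the highest level was in STAT3+ CM replicate 1. Plac8 encodes a small cysteine-rich protein of leukocytes. It had 96.0, 96.0 and 115 CPM with STAT3- CM and 329, 186 and 128 CPM with STAT3+ CM. Its log2 fold change was 1.06 (SE 0.29). No test is given for Plac8, since it was picked for following Dntt, which was itself picked for this contrast. For Ighm the closest were Gtf2f2 (0.999), a subunit of the general transcription factor TFIIF, Nfu1 (0.997), Dcaf13 (0.997), Ranbp1 (0.997) and Mrpl19 (0.995), a mitochondrial ribosomal protein. In these 5, as in Ighm, STAT3- CM replicate 3 was lowest and STAT3+ CM replicate 2 highest. With 6 libraries and so many genes, values this high describe a pattern across shared libraries only.

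**Figure D4:**
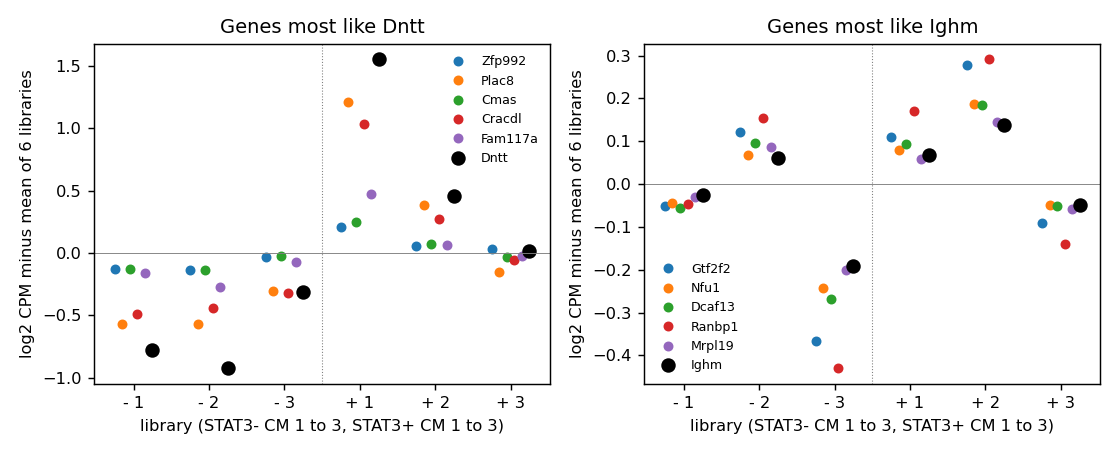
Log2 CPM of Dntt and of Ighm (large black points) and of the 5 genes most like each, less each gene's mean over the 6 libraries; points are offset sideways for legibility. Dntt and its 5 genes peak in STAT3+ CM replicate 1, and Ighm and its 5 genes are lowest in STAT3- CM replicate 3.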

How the data were processed

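RNA of 6 libraries, 3 with STAT3- CM and 3 with STAT3+ CM, was prepared from 500 ng with a directional polyadenylated-RNA kit (mean RNA quality 9.4, range 9.0 to 9.8), per the labels. The deposited values are read counts per gene made by the authors, 1 column per library. The submitters' processing notes list the genome build GRCm39 and, as tools, Cufflinks 2.2.1, SAMtools 0.1.19, TopHat2 2.0.10, FastQC and Bowtie 1.0.0. The counting program, annotation, strand setting and low-count filter: not given in the sources used here. Totals ran from 43346089 to 53630514 counts, so a gene at 1 CPM rests on about as many reads as Igkc had. On the principal components STAT3- CM replicate 3 and STAT3+ CM replicate 1 stood farthest apart from the other libraries. Within-group library pairs differed by far more than sampling noise (chi-square per degree of freedom 21.9 to 84.9).

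Counts were filtered by filterByExpr (14319 of 14481 genes kept), scaled by TMM and compared in edgeR 4.0.16 (R 4.3.3) by quasi-likelihood F tests with robust dispersions. The p-values (two-sided) had the Benjamini-Hochberg adjustment across the 14319 genes, and 0.05 was the threshold. Each SE was the size of the log2 fold change divided by the root of F. DESeq2 1.42.0, limma-voom (limma 3.58.1), other scalings and filters, edgeR's earlier quasi-likelihood procedure, a block for replicate number and each library left out were alternatives. A fit without both outlying libraries was chosen after seeing the data. The workflow was tested on simulated data.

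The members, lists and rule for named genes were chosen with earlier results of these data known. Named were the members, every gene with a row in the recombination, polymerase, immunoglobulin, surrogate light chain and T cell receptor lists, the 4 regulators with the smallest p, the 2 nearest genes on each side of Dntt and Ighm, and the 5 genes with the highest Pearson's r (log2 CPM, prior count 2) to Dntt and to Ighm. Marker genes besides these were named after their values were seen. Lengths and neighbours come from GENCODE M21 (GRCm38), in which 14121 gene names matched, and promoter letters from RefSeq. Because GRCm38 is not the build of the counts, it gave names, order, lengths and letters only.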

Additional observations from a re-analysis of the deposited data

How the results depend on the processing

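The count of genes past the threshold was 0 in edgeR under each scaling, filter and method tried; DESeq2 gave 48, and leaving out 1 library gave 0 to 18, with 1 without STAT3- CM replicate 1 and 18 without STAT3- CM replicate 3. Without both outlying libraries it was 10. Dntt kept its direction in 16 of 16 alternatives, with log2 fold changes of 0.89 to 1.76, the lowest without STAT3+ CM replicate 1. Because Dntt was picked for this direction and its groups did not overlap, that count is no support for it. Ighm also kept its direction in 16 of 16 (0.03 to 0.16) and was called in none of them. Igkc ran from -0.0918 to 0.39 over 15 alternatives, negative in 2 of them, and could not be fitted with at least 1 CPM in at least 3 libraries, where the filter removed it. The paired fit, with a replicate block, gave 0 genes past the threshold and log2 fold changes of 1.36 for Dntt, 0.10 for Ighm and 0.19 for Igkc, and changed no call. With the block, 709 genes had an unadjusted p under 0.05 in edgeR, against 521 without it. After each group's mean was removed, same-numbered libraries correlated across genes at -0.261, 0.281 and 0.182. Libraries of unlike number were not compared in this way, so these values cannot decide whether the numbers pair the libraries. Without correction for length the ratio of Ighm to Igkc was 329 rather than 103.2.

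Of 50 other named genes, 16 reversed under at least 1 alternative, all with log2 fold changes of -0.24 to 0.33. With 1 library left out the ranges were -0.0482 to 0.15 for Dnttip1, -0.12 to 0.18 for Dnttip2, -0.0245 to 0.24 for Hmgb1, -0.0518 to 0.26 for Hmgb2, -0.26 to 0.0853 for Ighd, -0.20 to 0.21 for Ighg3, -0.11 to 0.10 for Lig4, -0.0529 to 0.11 for Paxx, -0.0537 to 0.14 for Pcna, -0.0961 to 0.0337 for Tm9sf3, -0.21 to 0.32 for Trgc1, -0.0976 to 0.53 for Trgc2, -0.20 to 0.0818 for Trp53bp1, -0.70 to 1.05 for Vpreb3, -0.0252 to 0.17 for Xrcc5 and -0.14 to 0.0295 for Zfp518a. Scaling by library totals only gave -0.0174 for Lig4, -0.0235 for Paxx, -0.00744 for Dnttip1, -0.00927 for Pcna, -0.0251 for Ighg3 and -0.00389 for Trgc1. Upper quartile scaling gave 0.00118 for Tm9sf3, and limma-voom 0.27 for Vpreb3. Without both outlying libraries, an alternative chosen after seeing the data, the values were -0.14 for Hmgb1, -0.19 for Hmgb2, -0.0988 for Dnttip1, -0.0671 for Dnttip2, -0.11 for Pcna, 0.12 for Ighd, -0.26 for Ighg3, 0.72 for Vpreb3, -0.44 for Trgc1 and -0.0243 for Trgc2. The cause was not tested. Low read counts limit Igkc, Ighj1, Gm30948 and the Vpreb genes. They also limit Dntt, with 72 to 108 reads per library with STAT3- CM, and Ighd, Ighg1, Ighg3, Trdc and Trgc1.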
